A study of Mus musculus with 6 samples.

Results

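Hyaluronan is the long sugar chain around which fibroblasts build much of the swollen, loose matrix of a healing heart. The genes described here make it (Has1, Has2, Has3 and Ugdh), bind it at the cell surface (Cd44) or cut it (Hyal1 and Hyal2). Others encode large proteoglycans that attach to it (Vcan and Acan) and a link protein (Hapln1). All 10 were chosen by name among the 25140 genes in the table, and 7 of them passed the filter on low counts. Gene expression was measured by RNA-seq in fibroblasts that the labels call primary cardiac fibroblasts, isolated from adult hearts of C57BL/6 mice and used at passage 1, while the study's results describe the same experiment as done in embryonic fibroblasts and its methods name cardiac fibroblasts. Cells were grown in DMEM with 25 mM glucose and 10% serum and moved to 1% serum, for 16 h by the labels and 24 h by the methods. They then received either vehicle (3 libraries) or TGFβ at 10 ng/ml (3 libraries) for 24 h. Vehicle and TGFβ cells shared strain, passage, medium and low serum, no other genotype or agent is named, and neither the number of hearts nor their pooling is given in the sources used here.

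Hyaluronan synthases sit in the plasma membrane, join UDP-glucuronic acid and UDP-N-acetylglucosamine, and push the growing chain out of the cell. Versican and aggrecan hold on to the chain through their N-terminal domains, link proteins lock the bond, and the chondroitin sulfate chains they carry draw in water. CD44 is the main receptor for the chain, and hyaluronidases cut it into pieces. TGFβ is the growth factor best known for driving fibroblasts to become myofibroblasts, the contractile cells that lay down scar matrix, and the comparison asked what it does to gene expression in these cells.

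The libraries held 27851677 to 31072338 counts, so that 3 counts, taken as the limit of detection, correspond to 0.0943 to 0.110 CPM (reads of a gene over the library's effective total, with TMM factors of 0.967 to 1.02). All 10 fibroblast markers looked at were present, summing to 53939–63798 CPM with vehicle and 52242–58040 CPM with TGFβ. Within that sum, led by Col1a1, 7 markers were lower with TGFβ, among them Pdgfra (log2 fold change -1.37), Tcf21 (-1.05) and Col3a1 (-0.94). Another, Postn, was higher (1.55), so 80% were called (edgeR, adjusted p under 0.05) beside 40.7% of all genes tested. The marker sums of other cells were below the fibroblast sum. Endothelial markers summed to 492–769 CPM with vehicle and 452–630 CPM with TGFβ, and leukocyte markers to 246–351 and 214–319 CPM. In each group the library with the middle total was the highest in both lists. Smooth muscle and pericyte markers came to 453–531 and 369–458 CPM, and mesothelial and epicardial markers to 317–362 and 257–310 CPM. Most of the mesothelial sum was Aldh1a2 (227 CPM with vehicle and 165 with TGFβ), which was fairly even within a group. Other genes of that list were not, such as Lrrn4. From the smallest to the largest total, Lrrn4 was at 1.65, 5.83 and 21.5 CPM with vehicle and 7.38, 2.03 and 1.29 CPM with TGFβ. In the smooth muscle list the top gene, Notch3, fell from 207 to 57.3 CPM (log2 fold change -1.85). Cnn1 (1.86), Cspg4 (1.45) and Smtn (0.29) were higher and 6 were not called, so 40% were called beside 40.7% of all genes. Cardiomyocyte markers came to 38.7–59.9 and 27.5–40.7 CPM, mostly Tnnt2 (46.7 and 34.0 CPM). Of that list, 6 genes did not pass the filter on low counts and Myh7 had no entry. Because these are bulk samples, fewer cells of a type and less RNA per cell cannot be told apart. The count columns carry no replicate number, so values are given in the order of the smallest, the middle and the largest total within a group.

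TGFβ raised 3 of the 7 genes tested, Has2, Vcan and Acan, and lowered 0 (edgeR's quasi-likelihood test, adjusted p under 0.05). The other 4 tested genes, Cd44, Ugdh, Hyal1 and Hyal2, did not pass. At an unadjusted p under 0.05, for which no share of all genes was taken, 4 were higher and 0 lower. DESeq2 called 4 higher and 0 lower, beside 5020 of all genes (2495 higher and 2525 lower). DESeq2 filters genes in its own way and the number it tested was not recorded, so no share was taken. Of all 14334 genes tested, 40.7% were called, 20.5% higher and 20.1% lower, so the 42.9% called here is a share close to that of all genes. The groups did not overlap for 3 of these 7 genes, against 53.3% of all genes tested. Their median log2 fold change was 0.31, beside -0.0013 over all genes. The 3 called genes ranked high among genes that rose. Among all genes tested, 70 had a larger log2 fold change with its sign than Acan, 211 than Vcan and 509 than Has2. Genes that fell by more are not in these counts. Of the 971 genes called with a log2 fold change beyond 1 in either direction, 625 were lower.

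**Figure D1:**
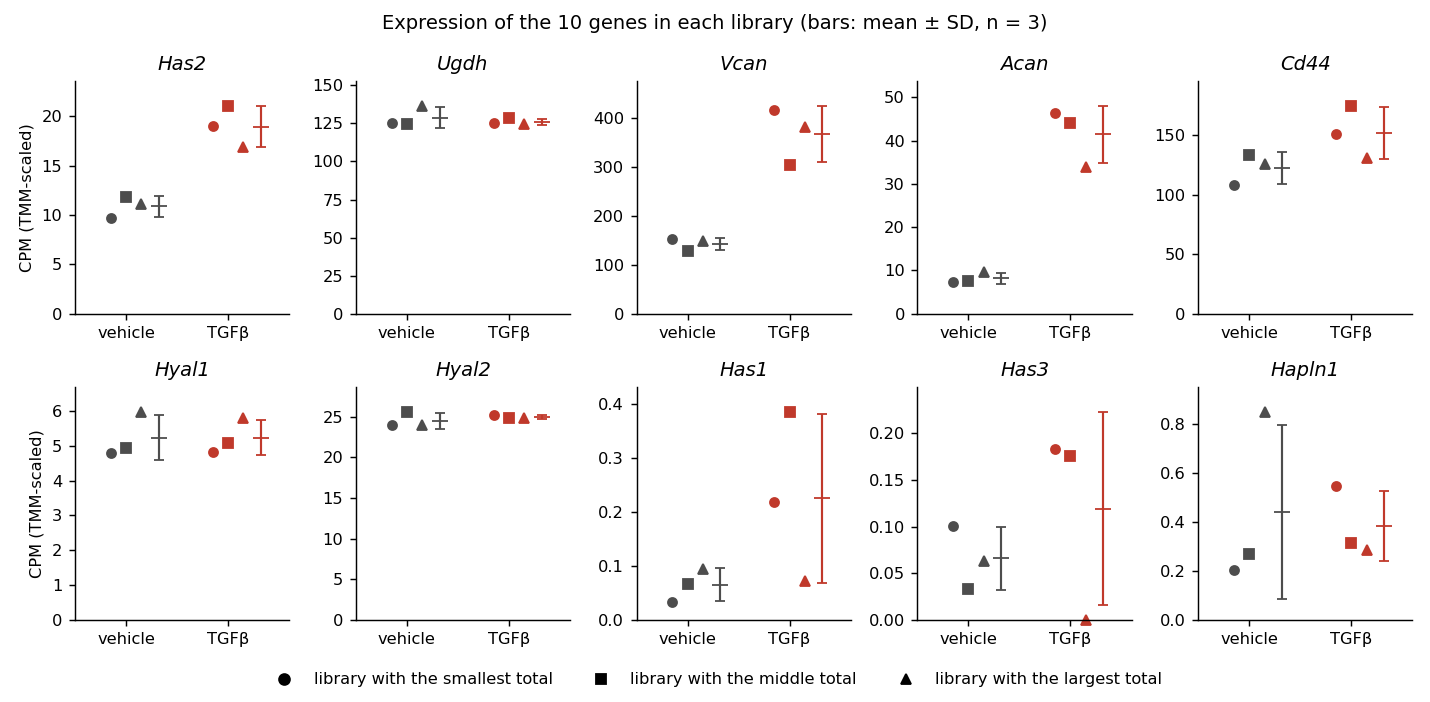
Expression of the 10 genes in each library, in TMM-scaled CPM on the y axis of each panel, with vehicle in grey and TGFβ in red, the 3 marker shapes standing for the library with the smallest, middle and largest total, and bars for the mean ± SD (n = 3). The TGFβ points lie clear of the vehicle points for Has2, Vcan and Acan, and the points of Has1, Has3 and Hapln1 lie under 1 CPM.

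Has2 was the only synthase well above the limit of detection. The gene (ENSMUSG00000022367) lies on the minus strand of chromosome 15, chr15:56665627-56694539 (mm10). It was read 288, 352 and 353 times with vehicle and 520, 600 and 471 times with TGFβ, or 9.71, 11.80 and 11.09 CPM against 19.01, 21.05 and 16.87 CPM. Every TGFβ value was above all of the vehicle values, so the groups were separate (p = 0.1 in a two-sided exact permutation test, which cannot go lower with 3 against 3). The mean rose from 10.9 ± 1.06 to 19.0 ± 2.09 CPM (SD, n = 3), a 1.75-fold change (95% interval 1.48 to 2.06, log2 fold change 0.80, SE 0.10, edgeR adjusted p = 0.000747). An antisense gene, Has2os, shares 182 exon bases with Has2 and had 99 counts, or 3.83% of the Has2 counts. Whether counting used the strand is not given in the sources used here, so reads of antisense partners cannot be told apart.

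The other synthases were near the limit of detection. Has1 (ENSMUSG00000003665, chr17:17843323-17855205, minus strand) had 1, 2 and 3 counts with vehicle and 6, 11 and 2 with TGFβ. The groups overlapped, and most of the TGFβ counts came from a single library. The ratio of the summed counts, 19 against 6, was 3.45 after scaling (95% exact binomial interval 1.33 to 10.6, counting error only), and 2.20 without the TGFβ library of the middle total. Has3 (ENSMUSG00000031910, chr8:106870242-106884566, plus strand) had 3, 1 and 2 counts against 5, 5 and 0. Its ratio of 1.82 (0.598 to 6.08) could not be told from equality, and 352 of its exon bases are shared with Chtf8 on the opposite strand, a gene with 17834 counts. Fitted with no filter on low counts, edgeR gave adjusted p = 0.116 for Has1 and 0.549 for Has3. Per kilobase of exon, Has2 made up 97.8% to 99.6% of the summed synthase level in the 6 libraries.

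Ugdh, the dehydrogenase that makes UDP-glucuronic acid, was abundant and level. It lies on the minus strand at chr5:65413221-65435949 (ENSMUSG00000029201). Expression was 126, 124 and 136 CPM with vehicle and 125, 128 and 125 CPM with TGFβ. The TGFβ values lay inside the vehicle range. The means were 129 ± 6.68 and 126 ± 1.97 CPM (SD, n = 3), with a log2 fold change of -0.03 (95% interval -0.14 to 0.08, SE 0.05, edgeR adjusted p = 0.633).

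**Figure D2:**
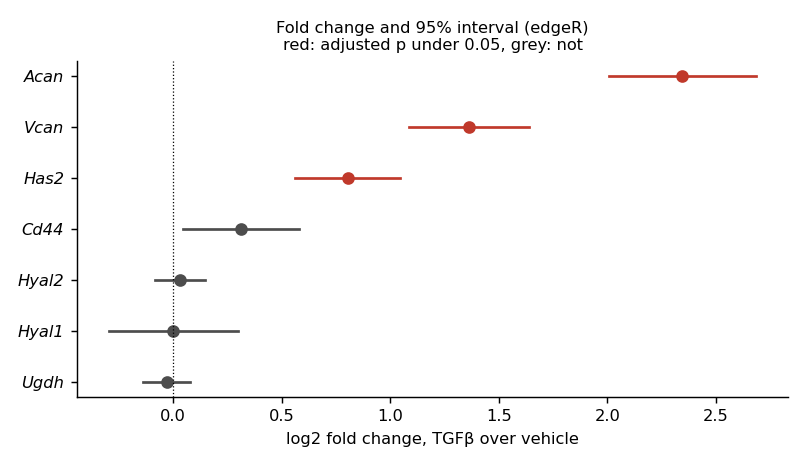
The x axis gives the log2 fold change, TGFβ over vehicle, of the 7 genes tested, as points with 95% intervals from edgeR, red where the adjusted p was under 0.05 and grey where it was not. Acan at 2.35, Vcan at 1.36 and Has2 at 0.80 stand to the right, and the intervals of Hyal2, Hyal1 and Ugdh span 0.

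The largest changes were in the proteoglycans that hang on the hyaluronan chain. The promoters of both are shown because these were the members that moved most. Each run is the 250 bases before the start of the gene in RefSeq (GRCm38.p6), 5′ to 3′ on the gene's own strand, chr13:89742513-89742762 (minus) for Vcan and chr7:79052976-79053225 (plus) for Acan. Capitals mark the match to a TEAD motif.
Vcan: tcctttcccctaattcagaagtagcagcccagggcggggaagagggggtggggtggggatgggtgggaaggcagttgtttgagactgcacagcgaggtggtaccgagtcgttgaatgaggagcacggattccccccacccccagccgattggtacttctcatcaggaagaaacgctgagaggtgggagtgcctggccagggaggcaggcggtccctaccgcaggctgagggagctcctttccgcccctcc
Acan: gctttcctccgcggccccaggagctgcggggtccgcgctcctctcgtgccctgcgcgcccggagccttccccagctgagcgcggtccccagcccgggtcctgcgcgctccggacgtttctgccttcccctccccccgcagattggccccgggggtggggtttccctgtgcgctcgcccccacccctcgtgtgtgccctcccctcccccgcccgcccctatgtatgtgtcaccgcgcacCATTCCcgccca
Both runs are rich in G and C, 62.4% in Vcan and 74.4% in Acan. Both strands were searched for GGAATG (TEAD), CAGAC (SMAD box), TGAGTCA (AP-1) and the CArG box bound by SRF. These occur in 12.6%, 42.2%, 4.46% and 1.47% of 32851 promoters of that length. Acan held 1 TEAD match and Vcan held none of these letters. Has2 and Has3 had no promoter entry and were not searched. Among the 8 genes with an entry, the SMAD box was found in Has1 (2 matches), Hyal1 (1) and Hapln1 (1), and the TEAD motif also in Hyal2 (1).

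Vcan encodes versican, the large chondroitin sulfate proteoglycan of loose and provisional matrix. It lies on the minus strand at chr13:89655312-89742509 (ENSMUSG00000021614) and was read 3812 to 4700 times with vehicle and 8667 to 11386 times with TGFβ. The values were 153, 128 and 148 CPM against 416, 304 and 382 CPM. The groups were far apart, the lowest TGFβ library lying well above the highest vehicle library. The mean rose from 143 ± 13.1 to 367 ± 57.5 CPM (SD, n = 3), or 2.57-fold (95% interval 2.13 to 3.12, log2 fold change 1.36, SE 0.12, edgeR adjusted p = 0.000118). In both groups the lowest Vcan value was in the library with the most endothelial and leukocyte marker RNA. Without both of those libraries the log2 fold change was 1.41 (edgeR adjusted p = 2.31e-05). The annotation lists 9 transcripts of Vcan, and counts per gene do not separate them.

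Acan encodes aggrecan, the main proteoglycan of cartilage. It lies on the plus strand at chr7:79053483-79115099 (ENSMUSG00000030607). Counts were 216, 225 and 305 with vehicle and 1268, 1256 and 949 with TGFβ, giving 7.28, 7.54 and 9.58 CPM against 46.4, 44.1 and 34.0 CPM. The TGFβ libraries were all well above the vehicle libraries. Acan had the largest change of the 7 genes, 5.08-fold (95% interval 4.02 to 6.44), from 8.14 ± 1.26 to 41.5 ± 6.58 CPM (SD, n = 3; log2 fold change 2.35, SE 0.15, edgeR adjusted p = 2.68e-05).

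Some other genes of cartilage rose beside Acan. Of 10 chondrocyte markers listed, 7 were tested. Snorc had no entry, and Matn1 and Chad, with 0 to 2 counts per library, did not pass the filter on low counts. Of the 7 tested, 4 were higher with edgeR (20.5% of all genes were) and 3 were not called. The share called in either direction was 57.1%, beside 40.7% of all genes. Together the markers reached 81.9–120 CPM in vehicle cells and 139–177 CPM in TGFβ cells, groups that did not overlap. Most of that sum was Sox9, a transcription factor of the cartilage lineage, which rose from 95.4 ± 17.7 to 134 ± 13.2 CPM (log2 fold change 0.49, edgeR adjusted p = 0.0201). Col2a1, the cartilage collagen, rose from 4.20 ± 1.69 to 20.3 ± 5.20 CPM (2.27, adjusted p = 0.000885) and Matn3 from 0.752 ± 0.225 to 1.99 ± 0.751 CPM (1.39, adjusted p = 0.0151). Col9a2 rose by 0.53 (adjusted p = 0.0395). The 3 not called were all under 1 CPM on average in both groups, with log2 fold changes of -0.45 for Col9a1, 0.03 for Col9a3 and 0.45 for Col11a2 (adjusted p = 0.555, 0.969 and 0.382). Whether cartilage cells were present, and any part of them in the Acan result, was not tested.

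Hapln1, the link protein that locks versican and aggrecan to the chain, was barely detected. The gene (ENSMUSG00000021613, chr13:89539796-89611652, plus strand) is 43.7 kb from Vcan. It had 6, 8 and 27 counts with vehicle and 15, 9 and 8 with TGFβ. The groups overlapped, and a single vehicle library held most of the vehicle counts. In CPM, the libraries of each group stood in the same order for Hapln1 as for the mesothelial marker Lrrn4. A link between them was not tested. The ratio of the summed counts was 0.851 (95% exact binomial interval 0.518 to 1.38) and turned to 1.62 without the vehicle library of the largest total.

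Cd44, the hyaluronan receptor, was the member nearest to the threshold. It lies on the minus strand at chr2:102811141-102901665 (ENSMUSG00000005087). Expression was 108, 134 and 126 CPM with vehicle and 151, 175 and 130 CPM with TGFβ. The lowest TGFβ value lay below the highest vehicle value, so the groups overlapped (exact permutation p = 0.2). The means were 122 ± 13.2 and 152 ± 22.1 CPM (SD, n = 3), a log2 fold change of 0.31 (95% interval 0.05 to 0.58, SE 0.11) with an unadjusted p of 0.0269 and an adjusted p of 0.0624 in edgeR. It was called with DESeq2 (adjusted p = 0.0282), with no filter on low counts (0.0302) and without the TGFβ library of the largest total (log2 fold change 0.41, edgeR adjusted p = 0.0254). Over all alternatives the adjusted p ranged from 0.0254 to 0.178. In both groups the highest Cd44 value was in the library with the most leukocyte and endothelial marker RNA, as it was for Has2. Without both of those libraries the log2 fold change was 0.27 for Cd44 (edgeR adjusted p = 0.0628) and 0.78 for Has2 (adjusted p = 0.00158).

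The hyaluronidases did not pass the test. Hyal2, a hyaluronidase anchored at the cell surface, lies at chr9:107567945-107572779 (ENSMUSG00000010047, plus strand) and was at 23.9, 25.6 and 23.9 CPM with vehicle and 25.3, 24.9 and 24.9 CPM with TGFβ. The groups overlapped, and the log2 fold change of 0.03 had a narrow 95% interval of -0.08 to 0.14 (SE 0.05, edgeR adjusted p = 0.658). Hyal1, the lysosomal enzyme, lies 4.15 kb away at chr9:107576927-107581710 (ENSMUSG00000010051, plus strand), with 4.79, 4.93 and 5.97 CPM against 4.83, 5.09 and 5.80 CPM. Its log2 fold change was 0.00 (95% interval -0.30 to 0.30, SE 0.13, edgeR adjusted p = 0.995). Hyal1 is uncertain, since 62.9% of its 75-base windows also occur in transcripts of other genes, chiefly Naa80 on the same strand, with which it shares 1920 exon bases. Hyal2 made up 82.1% to 85.7% of the summed Hyal1 and Hyal2 level per kilobase, a share that carries the uncertainty of Hyal1.

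Per kilobase of exon, TGFβ changed the order of the members. With vehicle Ugdh (19.1 ± 0.989 CPM per kilobase) and Cd44 (18.1 ± 1.94) led, and their libraries overlapped. Vcan (9.87 ± 0.907), Hyal2 (7.44 ± 0.287) and Has2 (2.57 ± 0.251) followed without overlap. Hyal1 (1.38 ± 0.171) and Acan (1.09 ± 0.169) came next and overlapped. With TGFβ Vcan was first (25.4 ± 3.98 CPM per kilobase), overlapping with Cd44 (22.4 ± 3.26), and Ugdh (18.7 ± 0.292) stood below both. Acan moved from rank 7 to rank 5 (5.55 ± 0.881), where it overlapped with Has2 (4.48 ± 0.493), and stayed below Hyal2 (7.59 ± 0.0667). Hapln1, Has1 and Has3 were last in both groups, at 0.0103 to 0.0745 CPM per kilobase. With the length of the longest transcript in place of all exons, Cd44 came before Ugdh with vehicle.

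**Figure D3:**
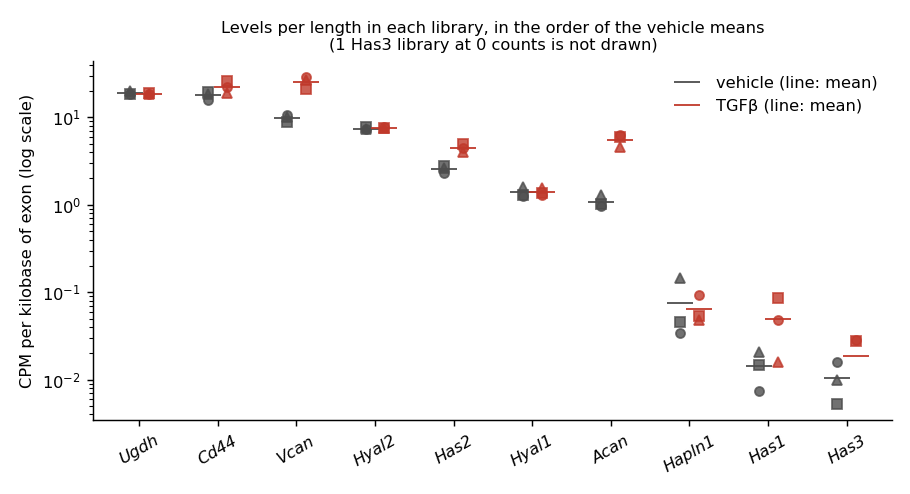
Level of each gene in each library, in CPM per kilobase of exon on a log axis, with vehicle in grey, TGFβ in red, a marker shape for the smallest, middle and largest total and a line at the mean of 3 libraries. The Has3 library with 0 counts is not drawn. The mean of Vcan passes those of Cd44 and Ugdh with TGFβ, from 9.87 to 25.4 CPM per kilobase, though its libraries overlap with those of Cd44. The mean of Acan rises from 1.09 to 5.55.

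Ratios between members within a library showed how unequal the changes were. Of 15 pairs compared, 11 had ratios whose groups did not overlap, each with an exact permutation p of 0.1, the smallest possible, and 0.136 after adjustment over the 15 pairs. Every pair of a called gene (Acan, Vcan or Has2) with one not called (Cd44, Ugdh or Hyal2) was among the 11. The count thus mostly restates the calls, and no share over pairs of other genes was taken. The log2 ratio of Acan to Vcan went from -4.39, -4.08 and -3.95 with vehicle to -3.17, -2.79 and -3.49 with TGFβ, so that it was 0.99 higher on average. The log2 ratio of Vcan to Has2 was 0.55 higher, but its groups overlapped (exact permutation p = 0.2, adjusted 0.214). The log2 ratio of Has2 to Cd44, singled out after its values were seen, had the smallest SD of the 15 with vehicle. It was -3.47, -3.50 and -3.50 with vehicle and -2.99, -3.05 and -2.95 with TGFβ, a shift of 0.49 with an SD of 0.0158 and 0.0511 within the groups. Both genes were thus high or low in the same libraries of a group, while the ratio was higher in every TGFβ library.

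Around the members, 40 of 64 related genes tested were called, 22 higher and 18 lower, or 62.5% beside 40.7% of all genes. Their median log2 fold change was -0.05. By list, the medians ranged from -0.81 for the proteases to 0.35 for the sugar supply, and no difference between lists was tested.

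The enzymes that supply UDP-sugars had 5 of 9 members higher and 1 lower (edgeR), with a median log2 fold change of 0.35. The share called was 66.7%, beside 40.7% of all genes. Of the hexosamine route to UDP-N-acetylglucosamine, Gfpt1, which makes the first committed step, rose from 89.4 ± 1.79 to 123 ± 5.20 CPM (log2 fold change 0.46, adjusted p = 0.000172). Gnpnat1 rose by 0.46 (adjusted p = 0.000564) and Pgm3 by 0.53 (adjusted p = 0.00031). Gfpt2, the other form of the first enzyme, was at 328 and 317 CPM (-0.05, adjusted p = 0.532), and Ugp2, which makes UDP-glucose for Ugdh, at 172 and 182 CPM (0.08, adjusted p = 0.19). Uxs1, which turns the product of Ugdh into UDP-xylose, rose from 38.7 to 52.1 CPM (0.43, adjusted p = 0.000439), and the transporter Slc35d1 from 11.2 to 14.3 CPM (0.35, adjusted p = 0.0233). The call on Slc35d1 was lost in 4 of 13 alternatives (adjusted p up to 0.0678). Uap1, the last enzyme of the route and named outside the rule given below, was at 56.9 and 59.6 CPM and did not pass (0.07, adjusted p = 0.215). Its relative Uap1l1 fell from 195 to 120 CPM (-0.70, adjusted p = 0.000621).

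Genes of hyaluronan turnover had 0 of 5 members higher and 2 lower in edgeR. The share called, 40%, was close to the 40.7% of all genes. At an unadjusted p under 0.05, for which no share of all genes was taken, 0 were higher and 3 lower. DESeq2 called 0 higher and 3 lower, beside 5020 of all genes, a count for which no share was taken. Cemip, which binds hyaluronan and drives its breakdown, was the most abundant, at 2567, 2150 and 2750 CPM with vehicle and 1776, 1089 and 1678 CPM with TGFβ. All TGFβ values were below the vehicle values (log2 fold change -0.72, SE 0.18, adjusted p = 0.0151). Like Vcan, it was lowest in the library of each group with the most endothelial and leukocyte marker RNA. Hexa, a lysosomal hexosaminidase, fell from 248 to 153 CPM (-0.70, adjusted p = 0.00214). Cemip2, a cell-surface hyaluronidase, was at 52.0 ± 7.35 and 47.8 ± 3.97 CPM (-0.12, adjusted p = 0.381).

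Of the other receptors and CD44 partners, 1 of 7 was higher and 1 lower (edgeR, 28.6% called, below the 40.7% of all genes). DESeq2 called 1 higher and 2 lower, beside 5020 of all genes, a count for which no share was taken. Msn, which ties CD44 to actin, rose from 759 ± 16.5 to 1103 ± 34.0 CPM (0.54, edgeR adjusted p = 0.000113). Hmmr, a hyaluronan-binding protein best known from dividing cells, fell from 9.89 to 5.66 CPM (-0.80, adjusted p = 0.00125). Layn, a membrane receptor, was at 51.6 CPM with vehicle (-0.05, 95% interval -0.21 to 0.11, adjusted p = 0.623).

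The genes listed as other lecticans, link proteins and hyaluronan cross-linkers moved in both directions, 3 of 8 tested higher and 3 lower. No lectican of this list passed the filter on low counts, and Hapln4 was its only link protein tested. The share called was 75% (edgeR), beside 40.7% of all genes. DESeq2 called 2 higher and 3 lower, beside 5020 of all genes, a count for which no share was taken. Tnfaip6, which moves heavy chains of inter-alpha-inhibitor onto the chain, was at 9.61, 12.1 and 12.3 CPM with vehicle and 18.9, 22.6 and 18.5 CPM with TGFβ. It rose, with separate groups (0.82, SE 0.12, edgeR adjusted p = 0.00119). Ptx3, a pentraxin that bridges those heavy chains, was at 495, 737 and 487 CPM with vehicle and 154, 171 and 151 CPM with TGFβ. It fell in all TGFβ libraries (-1.85, SE 0.16, adjusted p = 0.000112). The heavy chain genes Itih5 (-1.26, adjusted p = 0.000195) and Itih2 (-0.54, adjusted p = 0.00828) fell too. The link protein gene Hapln4 rose from 1.17 to 2.65 CPM (1.19, adjusted p = 0.00659), and Hapln3 was at 0.120 and 0.251 CPM, too low to be tested. Habp4 rose by 0.16 (adjusted p = 0.0377), a call lost in 10 of 13 alternatives (adjusted p up to 0.153).

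**Figure D4:**
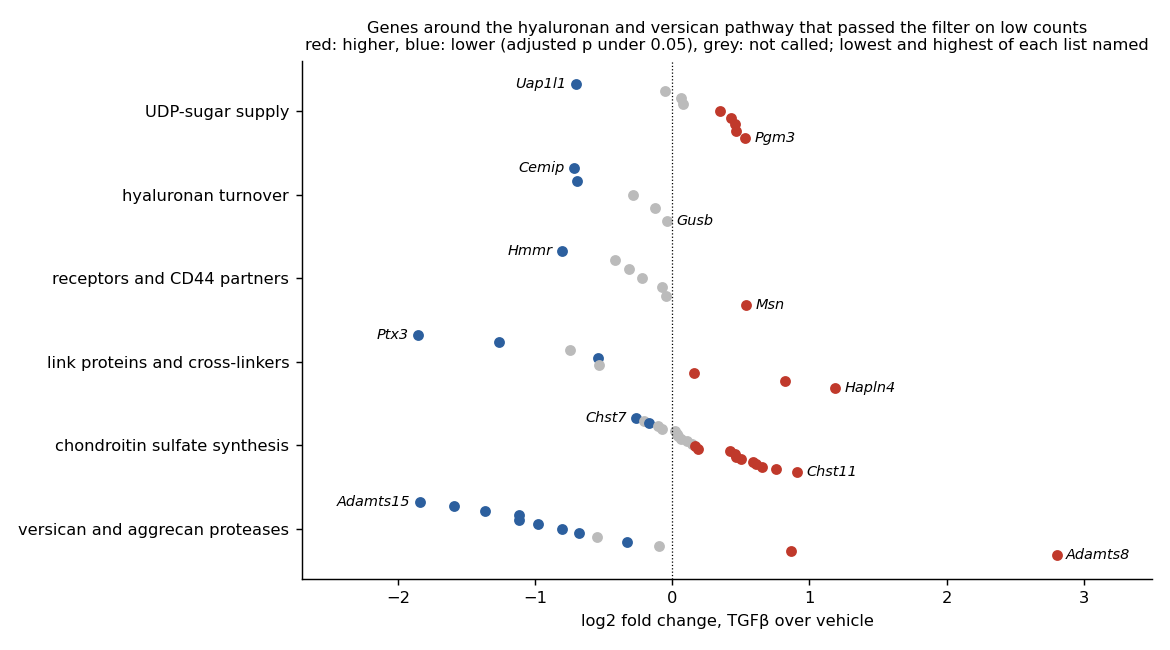
Each point is a tested gene of the 6 related lists, 1 row per list, placed by its log2 fold change (TGFβ over vehicle), in red where higher and blue where lower at an adjusted p under 0.05, and grey otherwise. The lowest and highest gene of each list are named. Chondroitin and dermatan sulfate enzymes lie mostly right of 0 and proteases mostly left of it, with medians of 0.15 and -0.81.

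Chondroitin sulfate is the sugar that versican and aggrecan carry. Of 22 tested genes listed for chondroitin and dermatan sulfate synthesis together, 11 were higher and 2 lower (edgeR, median log2 fold change 0.15). The share called was 59.1%, beside 40.7% of all genes. DESeq2 called 10 higher and 1 lower, beside 5020 of all genes, a count for which no share was taken. Chst11, which sulfates the chain at position 4 of its galactosamine, was at 118, 156 and 116 CPM with vehicle and 217, 297 and 216 CPM with TGFβ. All TGFβ values were higher (0.91, SE 0.16, adjusted p = 0.00301), and the middle library led in both groups. Papss2, which makes the sulfate donor, rose from 61.5 to 104 CPM (0.76, adjusted p = 3.3e-05). The chain polymerases Chsy1 (72.1 to 113 CPM, 0.65, adjusted p = 0.000565) and Chsy3 (5.97 to 9.13 CPM, 0.61, adjusted p = 0.00298) rose, as did their partner Chpf2 (0.50, adjusted p = 9.94e-05) and Xylt1, which starts the chain (0.59, adjusted p = 0.00119). The 2 lower genes, named after their values were seen, were Chst7 (-0.26, adjusted p = 0.0132) and Dse (-0.17, adjusted p = 0.0341).

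Of the 13 tested genes listed as proteases that cut versican and aggrecan, 9 were lower and 2 higher (edgeR, median log2 fold change -0.81). The share called was 84.6%, beside 40.7% of all genes. Adamts9 was at 165, 168 and 153 CPM with vehicle and 52.1, 55.3 and 53.7 CPM with TGFβ. Its groups were far apart, with the smallest standard error of the list (-1.59, SE 0.05, adjusted p = 3.66e-06). Adamts5, the protease of the list with the highest CPM, fell from 1246 ± 110 to 574 ± 104 CPM (-1.12, adjusted p = 0.000472). Per kilobase of exon it was not the highest, at 115 with vehicle and 53.2 with TGFβ against 483 and 188 for Mmp3. Adamts1 fell from 405 to 253 CPM (-0.68, adjusted p = 0.00706) and Adamts15 from 4.50 to 1.26 CPM (-1.84, adjusted p = 0.000187). The metalloproteases Mmp3 (870 to 338 CPM, -1.36, adjusted p = 0.0126) and Mmp12 (48.1 to 22.1 CPM, -1.12, adjusted p = 0.000386) fell, and Mmp3 was highest in the middle library of both groups, at 1238 and 500 CPM. Adamts8 ran against the list, from 0.703 ± 0.148 to 4.91 ± 0.212 CPM (2.80, SE 0.17, adjusted p = 2.3e-05). The other higher gene, named after its values were seen, was Timp3, an inhibitor of these proteases rather than a protease (2428 to 4417 CPM, 0.86, adjusted p = 0.00184).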

How the data were processed

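RNA-seq libraries of 3 vehicle and 3 TGFβ cultures were analysed, called biological replicates in the methods. The kit kept the strand and selected poly(A) RNA, and reads were single-end with 75 bases. The authors deposited raw counts of reads per gene, with mm10 and DESeq2 named in the submitters' processing notes. The aligner, counter, annotation and strand setting are not given in the sources used here. The table's normalized mean and the columns of the authors' own comparison (fold change, its error, statistic and p-values) were not used, and the ATAC-seq data were not analysed here.

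TMM factors, the filter on low counts (filterByExpr) and the quasi-likelihood test came from edgeR 4.0.16 in R 4.3.3, with Benjamini-Hochberg adjustment over 14334 genes and a threshold of 0.05. CPM are counts over each library's total in the genes that passed the filter, multiplied by its TMM factor. Totals over all genes were 27851677 to 31072338 counts, and at this depth genes with few counts are limited by counting error. Intervals on few counts cover counting error only. Positions and exon lengths came from GENCODE M21 (GRCm38), which held 25086 of the table's gene identifiers, and promoters from RefSeq (8 of 10 members matched). An exact permutation test (two-sided) was run on single genes. No replicates were duplicates (chi-square per gene 7.95 to 27.1). The fit was tested on simulated data.

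The members and lists were chosen with earlier results of these data known. Named genes are all members, up to 6 called genes per related list with the largest change, and 14 genes named whatever their values, some of which the previous clause takes in too. Among the related genes, Uap1, Chst7, Dse and Timp3 were named outside this rule. Alternatives were DESeq2 1.42.0, limma-voom (limma 3.58.1), DESeq2 size factors, upper quartile scaling, no filter, a minimum of 1 CPM in 3 libraries, leaving out each library in turn, stricter thresholds, and transcript length.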

Additional observations from a re-analysis of the deposited data

How the results depend on the processing

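Has2, Vcan and Acan kept their direction and their call in each of 13 alternatives (scaling, tool, filter, each library left out, and both libraries highest in leukocyte and endothelial markers left out), with log2 fold changes of 0.72 to 0.88, 1.26 to 1.48 and 2.24 to 2.48. Of 91 such values for the 7 tested members, 88 kept their call and 3 gained it, all for Cd44. Of 429 values for 33 related genes, 14 lost the call, all for Slc35d1 or Habp4, and 0 were reversed. These 33 were the named genes that were tested, mostly chosen for a call and a large change. Over all related genes, 40 were called in the main fit and 33 to 41 in the 13 alternatives. Of all genes, 5828 were called in the main fit and 4489 to 5840 in the alternatives. An adjusted p of 0.01 left 3595 genes called in all (1855 higher, 1740 lower), and a log2 fold change beyond 1 left 971 (346 higher, 625 lower), 9 related genes (2 higher, 7 lower) and 2 members, Vcan and Acan. Leaving out both marker-high libraries, and the alternatives on related genes, were chosen after seeing the data. No paired analysis was possible because the count columns carry no replicate numbers. Depth limits Has1, Has3 and Hapln1, whose values rest on 6 to 41 counts a group.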
